A study of Mus musculus with 25 samples.

Results

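SINE B2 is a mouse family of short interspersed elements, and its copies were followed here through late two-cell mouse embryos made by in vitro fertilization (IVF) or by somatic cell nuclear transfer (SCNT). The members were the rows of the deposited count table whose repeat class is SINE/B2, which gave 280652 copies out of 1755056 transposable element (TE) copies. Of these, 263757 lay on the 19 autosomes and were used. They comprised 147026 copies inside an annotated gene, 60255 outside genes but under 10 kb from one, and 56476 at 10 kb or more. Places refer to the genes of the annotation used for the counts alone. No TE row touched an annotated exon, so a copy inside a gene was intronic. The family held 5 subfamilies, B2_Mm1a, B2_Mm1t, B2_Mm2, B3A and B3, and the reads of each were summed within each place and scaled to the reads on genes.

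A B2 element is derived from a transfer RNA gene and carries an internal promoter for RNA polymerase III, formed by an A box and a B box near its start, followed by an A-rich tail with polyadenylation signals. B2 sequences also sit in introns and are carried along in the unspliced transcripts of RNA polymerase II. The Mm subfamilies hold the younger copies and B3 and B3A the older ones, and SINEs are among the repeats transcribed in the early mouse embryo, whose genome is switched on in a major wave at the two-cell stage.

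The table held 25 RNA-seq libraries in 11 groups, each made from a pool of 5 to 10 embryos collected 28 to 29 h after insemination or activation. IVF embryos (4 libraries) came from oocytes of C57BL/6N females aged 4 to 20 weeks and DBA2 sperm, while all SCNT embryos came from cumulus cell nuclei and oocytes of wild-type BDF1 (C57BL/6N by DBA2) females. In the cytochalasin B series, SCNT_cont (2 libraries) was the uninjected control, and SCNT_Kdm3a and SCNT_Kdm4d (2 each) received 10 pL of 1500 ng/μL mRNA for a demethylase, KDM3A acting on mono- and dimethylated lysine 9 of histone H3 (H3K9) and KDM4D on di- and trimethylated H3K9. In the latrunculin A series, LatA_cont (2 libraries) was the untreated control, LatA_TSA (2) received the histone deacetylase inhibitor trichostatin A (TSA) at 25 nM for 8 h, LatA_R701 (3) and LatA_A366 (2) received an inhibitor of the H3K9 methyltransferase G9a (RK-701 or A366) at 1 μM for 24 h, and LatA_TSA_R701, LatA_TSA_A366 and LatA_TSA_UNC0638 (2 each) received TSA and a G9a inhibitor, the third being UNC0638. Below, untreated SCNT means SCNT_cont and LatA_cont (4 libraries) and co-treated means the 3 TSA plus inhibitor groups (6 libraries). The study's methods give a narrower age range for the IVF animals than the labels do. The IVF and SCNT embryos differed in the strain of the oocyte as well as in the origin of the nucleus. The study states that IVF embryos were of both sexes and SCNT embryos all female. SCNT embryos alone were activated with strontium chloride and kept in cytochalasin B or latrunculin A. These differences cannot be told apart. Nothing in the labels states that replicate pools were made on separate days, so each p-value measures only the spread between these pools.

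Libraries were primed on poly(A) tails and counted without regard to strand, so a B2 RNA made from its own promoter and a polyadenylated or A-rich intron transcript that runs through the copy cannot be told apart. Only reads that aligned to 1 place were counted, so copies without sequence differences from their relatives were under-counted. Gene reads ranged from 6662727 to 21188688 per library (median 13994840), and reads on autosomal B2 copies from 150811 to 649318. Summed markers of the late two-cell stage, such as Zscan4d and Zfp352, lay between 288 and 1900 reads per 1000000 scaled gene reads (CPM) over the libraries and those of cumulus cells between 31.1 and 71.3 CPM, and their values by group are given beside the results they move with. The 2 LatA_cont libraries differed from each other more than any other replicate pair (chi-square of 69.0 per degree of freedom over genes, against 8.13 to 35.4 in the other pairs), and results that rest on one of them are marked.

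To show what the counted copies look like, 1 copy of each subfamily is given as genomic sequence read 5′ to 3′ on the strand of the element (mm10), taken from the RefSeq promoter windows (250 bases before to 50 bases after a gene start), which held 119 autosomal B2 copies whole. Capitals mark the A box (TGGC, 2 free bases, AG, 1 free base, GG), the B box (GTTC, 1 free base, A, 2 free bases, CC) and the polyadenylation signal (AATAAA), searched on the strand of the element. The 3 kinds of motif do not overlap, although neighbouring AATAAA share bases.
B2_Mm1a, chr15:8510990-8511181, minus strand: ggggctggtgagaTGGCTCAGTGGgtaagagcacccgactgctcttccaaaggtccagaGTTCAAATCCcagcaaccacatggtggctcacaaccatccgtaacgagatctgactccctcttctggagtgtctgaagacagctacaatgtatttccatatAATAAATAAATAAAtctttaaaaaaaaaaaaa
B2_Mm1t, chr9:89087276-89087456, plus strand: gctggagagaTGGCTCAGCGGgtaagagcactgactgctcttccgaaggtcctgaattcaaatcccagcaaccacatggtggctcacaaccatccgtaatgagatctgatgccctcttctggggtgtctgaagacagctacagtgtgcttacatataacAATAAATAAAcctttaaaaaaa
B2_Mm2, chr9:72779466-72779644, minus strand: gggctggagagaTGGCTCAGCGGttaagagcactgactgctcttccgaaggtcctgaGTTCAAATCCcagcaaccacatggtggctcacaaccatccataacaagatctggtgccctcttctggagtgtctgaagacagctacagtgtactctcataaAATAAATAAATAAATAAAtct
B3A, chr15:79893194-79893378, plus strand: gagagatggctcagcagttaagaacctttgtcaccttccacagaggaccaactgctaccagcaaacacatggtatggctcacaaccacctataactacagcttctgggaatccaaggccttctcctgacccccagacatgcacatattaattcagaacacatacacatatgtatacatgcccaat
B3, chr4:59281695-59281895, plus strand: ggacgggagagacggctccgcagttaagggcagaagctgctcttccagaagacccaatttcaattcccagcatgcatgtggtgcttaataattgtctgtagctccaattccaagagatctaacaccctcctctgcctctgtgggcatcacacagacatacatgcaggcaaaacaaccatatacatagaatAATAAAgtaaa
The B2_Mm1a and B2_Mm2 copies carried all 3 motifs, the B2_Mm1t copy lacked an exact B box, the B3 copy carried AATAAA alone and the B3A copy carried none. Across the 119 copies, the A box stood in 6 of 7 B2_Mm1a, 8 of 14 B2_Mm1t, 22 of 54 B2_Mm2, 1 of 10 B3A and 3 of 34 B3 copies, and the B box in 7, 11, 34, 0 and 6 of them in the same order. On either strand of the 32851 RefSeq windows, the A box was found in 2.2%, the B box in 3.3% and AATAAA in 19.6%. These are matches of letters only. Over the 25 libraries, the printed B2_Mm1a copy collected 3168 reads and the printed B3A copy, in an intron, 14 reads. Places were taken from the counted genes and not from RefSeq gene starts. The B2_Mm1a copy thus stood as 1146 bp from a gene. The B3 copy, in the promoter window of RefSeq gene Gm35578, stood as far from genes at 18426 bp.

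B2 reads were spread over many copies but concentrated in few. Inside genes 68.2% of copies had at least 1 read over the 25 libraries, against 62.6% of copies under 10 kb from a gene and 45.2% of copies farther away. Of 10870134 B2 reads, 62.3% fell inside genes, 26.6% under 10 kb from a gene and 11.1% at 10 kb or more. The 1% of copies with most reads held 41.9% of the reads inside genes and 56.0% of the reads far from genes.

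Levels per length ordered the subfamilies in the same way inside genes and far from them. As reads per kb of copy per 1000000 gene reads over all libraries, B2_Mm1a reached 3.73 inside genes and 2.68 far from genes, B2_Mm1t 2.19 and 1.48, B2_Mm2 0.742 and 0.347, B3 0.348 and 0.103, and B3A 0.247 and 0.0684. B2_Mm1a and B2_Mm1t together held 52.6% of B2 reads inside genes in IVF embryos although they made up 9045 (B2_Mm1a) and 11074 (B2_Mm1t) of the 147026 copies there. Within genes, the level over all subfamilies was 0.801 ± 0.197 for sense and 0.764 ± 0.165 for antisense copies (same scale, SD, n = 25). Sense and antisense levels were 4.01 and 3.54 in B2_Mm1a, 2.4 and 2.08 in B2_Mm1t, and 0.808 and 0.702 in B2_Mm2. They were 0.365 and 0.333 in B3, and 0.24 and 0.243 in B3A. The difference between the orientations was not tested. The level was lowest far from genes. In untreated SCNT embryos it was 1.02 ± 0.13 (SD, n = 4) inside genes, 1.12 ± 0.132 at less than 1 kb from a gene and 0.165 ± 0.0425 at 100 kb or more.

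**Figure D1:**
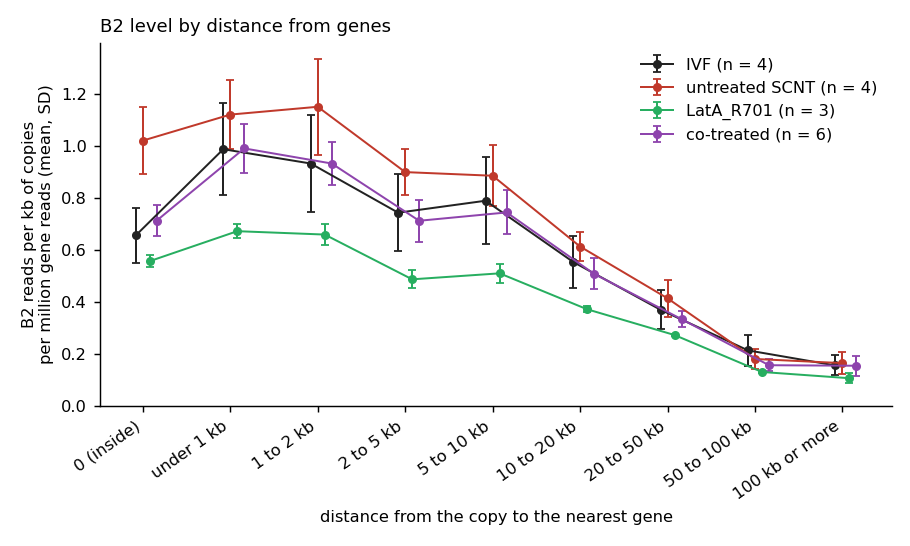
B2 level (reads per kb of copy per 1000000 gene reads, mean and SD over libraries) for copies inside genes and in bins of distance from the nearest gene, in IVF, untreated SCNT, LatA_R701 and co-treated embryos. Inside genes untreated SCNT (1.02) lies above IVF (0.656), while at 100 kb or more they lie at 0.165 and 0.156.

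The first comparison asked how B2 RNA in untreated SCNT embryos differed from that of fertilized embryos of the same stage. Levels are given per 1000 scaled gene reads, that is gene reads times a factor for library composition (TMM). Inside genes, B2 reads per 1000 scaled gene reads were 13.9, 17.1, 20.4 and 16.2 in the IVF libraries, 26.7 and 27.2 in SCNT_cont, and 21.8 and 29.8 in LatA_cont. All 4 untreated SCNT libraries lay above all 4 IVF libraries. The B2 total inside genes was higher by 0.64 ± 0.11 on the log2 scale (SE, adjusted p = 3.85e-05, edgeR quasi-likelihood test with Benjamini-Hochberg adjustment over 75 family sums), but scaled to the reads of SINE B1, the other abundant mouse SINE, the difference turned to -0.27 (adjusted p = 0.0225). Either control alone gave a like value (0.67 for SCNT_cont and 0.61 for LatA_cont, adjusted p = 0.000236 and 0.00058), and the 2 controls differed from each other by -0.06 without a call. The B1 total itself was higher by 0.93 inside genes. Of all family sums, 45.3% were called higher in this comparison, so a called B2 sum was not unusual. Markers moved with this comparison too. Summed late two-cell markers were at 1080 to 1430 CPM in IVF, 775 to 850 CPM in SCNT_cont and 425 to 605 CPM in LatA_cont, with 4 of 8 called lower. Summed oocyte markers (8 genes, such as Zp3, Gdf9 and Nlrp5) were at 1550 to 1900 CPM in IVF and 1050 to 1260 CPM in untreated SCNT, with 5 of the 7 tested called lower and a median log2 difference of -1.13. The part of either list in the result was not tested. Since the embryos were pooled, fewer embryos with a high level and a lower level in every embryo cannot be told apart.

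Far from genes the 2 kinds of embryo overlapped. B2 reads per 1000 scaled gene reads were 2.98, 3.86, 4.85 and 3.73 in IVF, 4.43 and 4.45 in SCNT_cont, and 3.44 and 4.43 in LatA_cont. The difference of 0.12 on the log2 scale did not pass the test (95% interval -0.13 to 0.37, adjusted p = 0.393), and scaled to B1 reads it was -0.48 (adjusted p = 0.00119). Copies under 10 kb from a gene lay between, with 0.23 (adjusted p = 0.113). The inside to far ratio of B2 reads, which needs no scaling to genes, was 4.67, 4.44, 4.21 and 4.33 in IVF, 6.02 and 6.12 in SCNT_cont, and 6.32 and 6.73 in LatA_cont. The groups did not overlap, and the exact permutation test over samples gave the smallest p it allows for 4 against 4 (two-sided p = 0.0286, 0.18 after adjustment over 44 such tests). The B2 to B1 ratio far from genes moved the other way and did not overlap either, from 2.86, 3.18, 4.26 and 3.25 in IVF to 2.3, 2.58, 2.63 and 2.21 in untreated SCNT (exact permutation p = 0.0286, adjusted 0.18). None of the 44 permutation tests passed after adjustment.

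**Figure D2:**
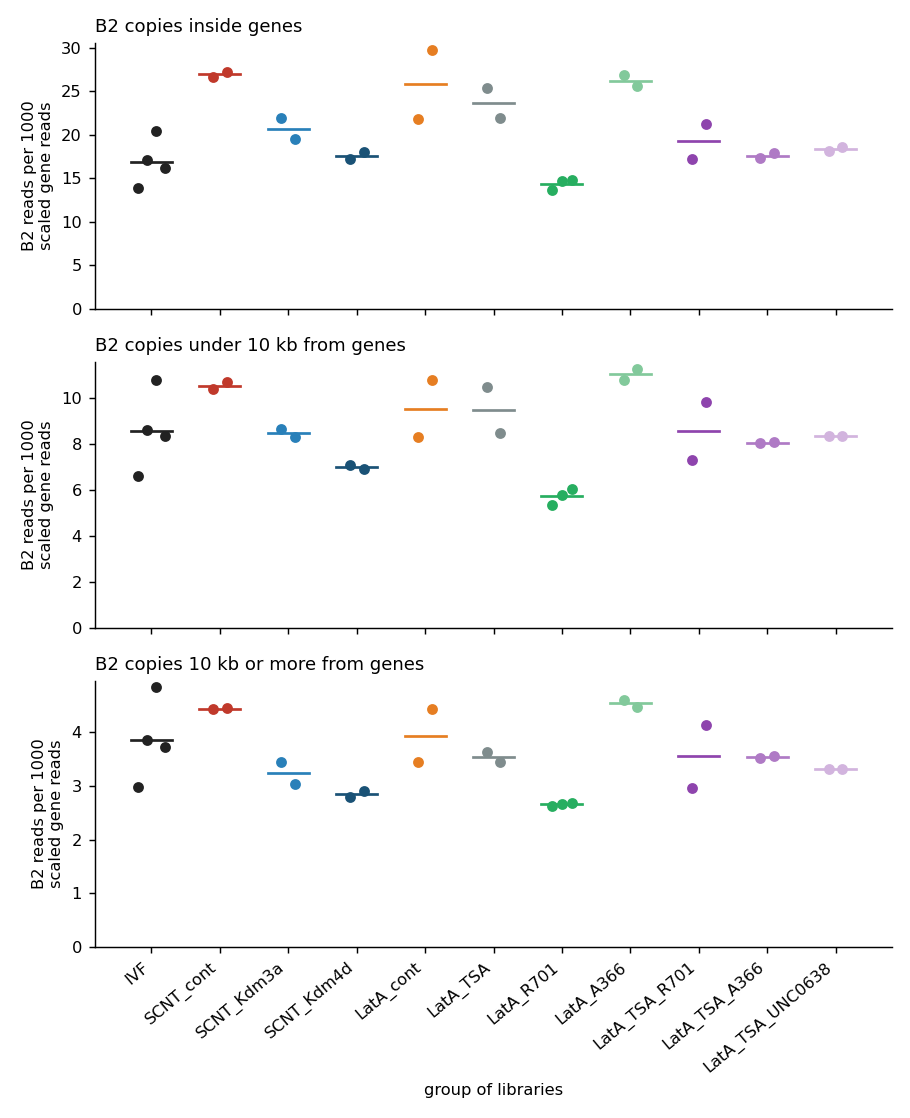
B2 reads per 1000 scaled gene reads in each of the 25 libraries (points) with the group mean (line), for copies inside genes, under 10 kb from a gene and at 10 kb or more, by group. Inside genes IVF libraries sit between 13.9 and 20.4, untreated SCNT libraries between 21.8 and 29.8 and LatA_R701 libraries between 13.6 and 14.8.

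**Figure D3:**
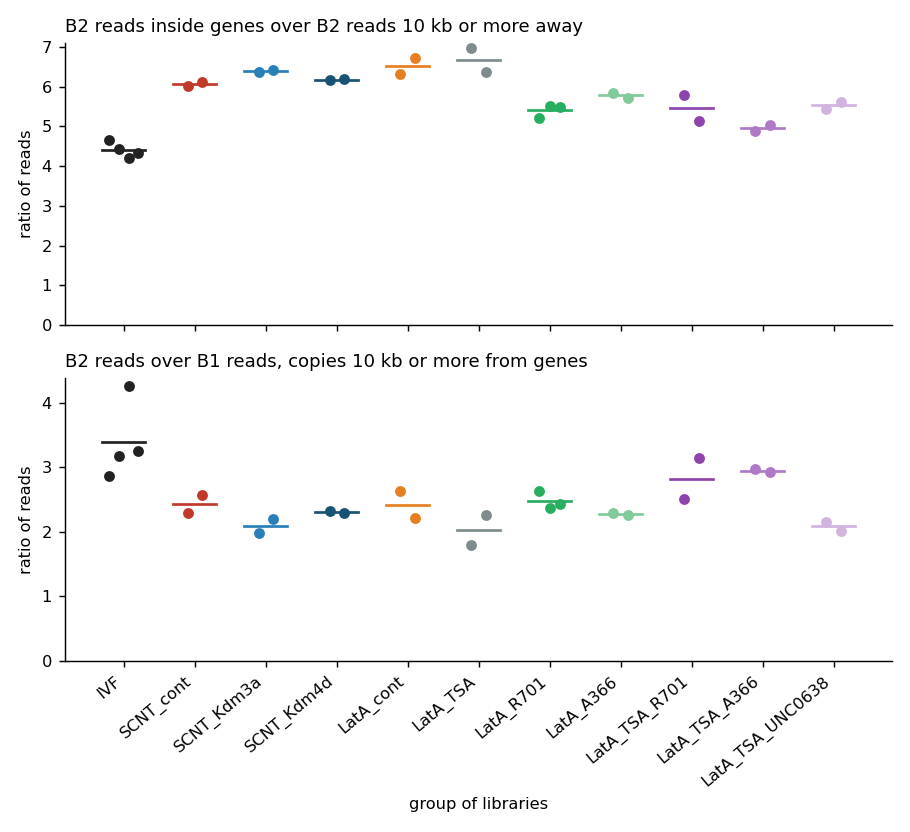
Ratio of B2 reads inside genes to B2 reads at 10 kb or more from genes, and ratio of B2 to B1 reads far from genes, in each library (points) with the group mean (line). IVF libraries have the lowest inside to far ratios (4.21 to 4.67) of the 11 groups.

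By subfamily, all 5 sums inside genes were called higher in untreated SCNT at an adjusted p under 0.05 (edgeR quasi-likelihood test over 1601 sums). So were 30.9% of all sums, among them 295 of the 585 inside genes. The older subfamilies differed most cleanly. B3 inside genes gave 2.69, 2.88, 2.86 and 2.87 reads per 1000 scaled gene reads in IVF against 4.83, 4.76, 4.62 and 5.49 in untreated SCNT (log2 0.80, adjusted p = 7.12e-07). B3A gave 0.793, 0.868, 0.833 and 0.826 against 1.41, 1.41, 1.3 and 1.61 (log2 0.79, adjusted p = 1.83e-06). In both, the lowest untreated SCNT library stood well above the highest IVF library. B2_Mm1a was more variable, at 3.95, 5.23, 6.6 and 4.68 in IVF against 8.34, 8.85, 6.17 and 9.61 in untreated SCNT, where the lowest SCNT library (LatA_cont replicate 1) fell below the highest IVF library. Its log2 difference was 0.69, and that of B2_Mm1t 0.55 and of B2_Mm2 0.51. Scaled to B1 reads, all 5 were at or below 0, from -0.10 (B3) to -0.40 (B2_Mm2). B2_Mm1a and B2_Mm1t together held a like share of B2 reads inside genes, 52.5% in untreated SCNT and 52.6% in IVF (exact permutation p = 0.971).

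Far from genes, B3A alone of the 5 was called, at 0.115 to 0.139 reads per 1000 scaled gene reads in IVF, 0.213 and 0.207 in SCNT_cont and 0.16 and 0.202 in LatA_cont (log2 0.61, adjusted p = 0.000499), and scaled to B1 reads its difference was 0.01. B3 gave 0.21 (adjusted p = 0.0911), B2_Mm1a 0.14 and B2_Mm2 0.01. Of all 508 TE sums far from genes, 100 were called higher.

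**Figure D4:**
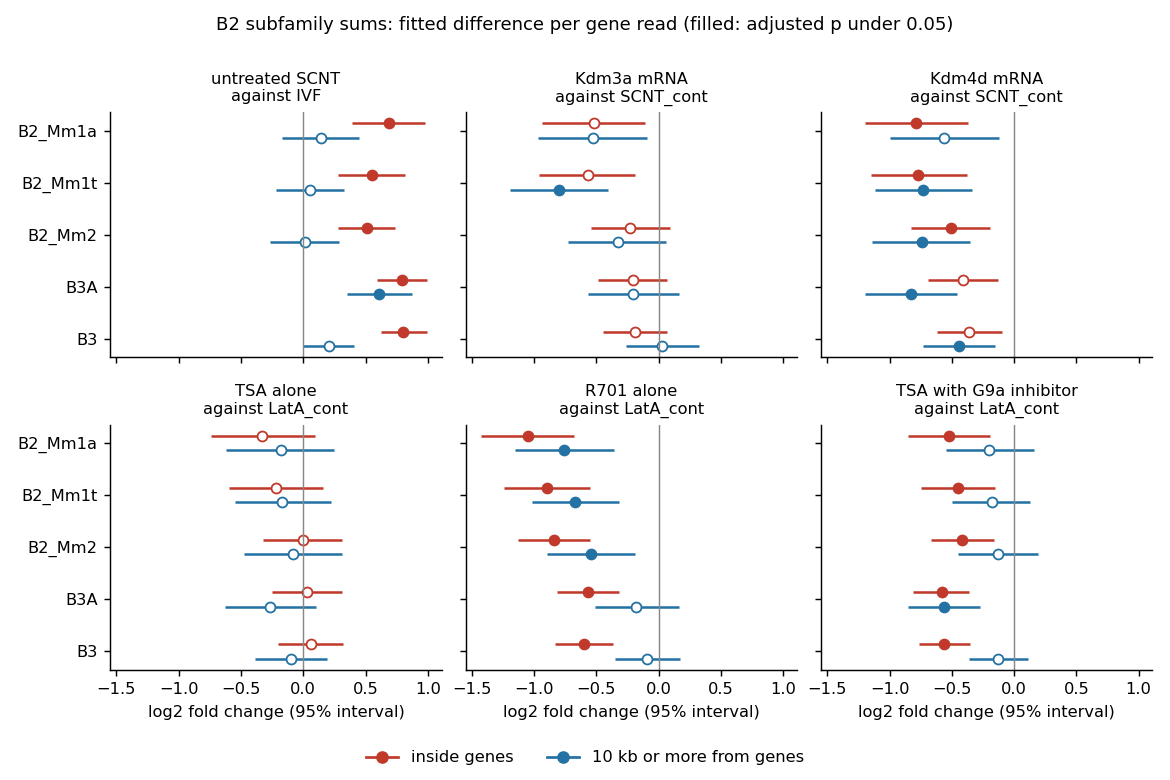
Log2 fold change with its 95% interval for each B2 subfamily, inside genes (red) and at 10 kb or more (blue), in the 6 main comparisons, scaled to gene reads. Filled points have an adjusted p under 0.05. Inside genes all 5 subfamilies lie above 0 in untreated SCNT against IVF and below 0 in LatA_R701 and co-treated embryos against LatA_cont, and scaled to B1 reads most of these differences change sign or come close to 0.

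Single copies were tested where they averaged at least 5 reads per library, which 15023 of 263757 B2 copies did. A copy that passed this filter only through the group in which it was high had to differ, so counts describe these copies and not the family. Against IVF, 1499 copies were higher and 849 lower in untreated SCNT (adjusted p under 0.05 and over 2-fold), or 15.6% of the B2 copies tested beside 19.9% of all TE copies tested. The median log2 difference was 0.44 over B2 copies, 0.79 over SINE B1 copies and 0.38 over all TE copies. By place, 1122 of 9890 tested copies inside genes were higher and 375 lower, and 121 of 1645 far copies were higher and 176 lower. These counts depend on the filter, and the difference between the places was not tested. The total of 2348 called copies fell to 1548 without IVF replicate 4 and to 1557 without LatA_cont replicate 2. Of the 1112 higher copies in a gene that was itself tested, 113 sat in a gene called higher and 49 in a gene called lower, beside 18.8% of all genes called in either direction.

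2 copies in introns of Phf21a, which encodes a histone H3 binding subunit of a demethylase and deacetylase corepressor complex, were the clearest of the higher copies. The B2_Mm2 copy at chr2:92144688-92144872 (minus strand, antisense to the gene) had 0.937, 0.497, 0.39 and 0.768 reads per 1000000 scaled gene reads (RPM) in IVF, 12.4 and 17.0 in SCNT_cont, and 11.5 and 6.89 in LatA_cont. It was higher by 4.21 ± 0.35 on the log2 scale (adjusted p = 2.03e-07). The B3A copy at chr2:92115394-92115578 had 0, 2, 1 and 1 reads in IVF against 40 and 55 in SCNT_cont and 47 and 33 in LatA_cont (adjusted p = 1.79e-07). Both copies stayed above every IVF library in all 21 SCNT libraries, treated or not. Exonic reads of Phf21a differed by 0.70 ± 0.16 (adjusted p = 0.00111).

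The clearest lower copies inside genes were both B2_Mm2. In Dnajb14, which encodes a co-chaperone of the endoplasmic reticulum membrane, the antisense copy at chr3:137875725-137875915 had 11.6, 19.1, 13.0 and 20.7 RPM in IVF against 0.387 and 0.159 in SCNT_cont and 1.09 and 0.745 in LatA_cont (log2 -4.99 ± 0.45, adjusted p = 4.96e-07). The exonic reads of Dnajb14 differed by 0.16 and did not pass the test (adjusted p = 0.454). In Mpc1, which encodes a subunit of the mitochondrial pyruvate carrier, the sense copy at chr17:8290588-8290760 had 11.1, 15.1, 11.7 and 12.7 RPM in IVF against 0.326 to 0.876 in untreated SCNT (log2 -4.39 ± 0.50, adjusted p = 6.67e-06), and its host gene was lower as well (-1.45 ± 0.24, adjusted p = 3.09e-05).

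Far from genes, the B2_Mm2 copy at chr13:102678037-102678222, 15336 bp from Cd180 (a receptor related to the Toll-like receptors), had 9.99, 5.96, 8.19 and 8.24 RPM in IVF against 0.0968, 0.319, 0.435 and 0.186 in untreated SCNT (log2 -4.88 ± 0.56, adjusted p = 7.8e-06). The B2_Mm1a copy at chr13:99830672-99830905, 67584 bp from the neuropeptide gene Cartpt, had 22.3, 23.4, 60.2 and 26.7 against 2.71, 1.12, 4.45 and 3.63 (log2 -3.58 ± 0.40, adjusted p = 6.39e-06). Both had fewer reads in each untreated SCNT library than in any IVF library. In the other direction, the B2_Mm2 copy at chr1:135211704-135211883, 20112 bp from the pseudogene Gm4204, had 13.9, 20.0, 37.3 and 17.7 RPM in IVF against 102, 86.1, 66.1 and 65.5 in untreated SCNT (log2 1.82 ± 0.26, adjusted p = 8.83e-05). The B2_Mm1a copy at chr13:93266337-93266528 rose from at most 0.52 to 1.77 to 2.95 RPM (log2 2.53, adjusted p = 0.00045).

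**Figure D5:**
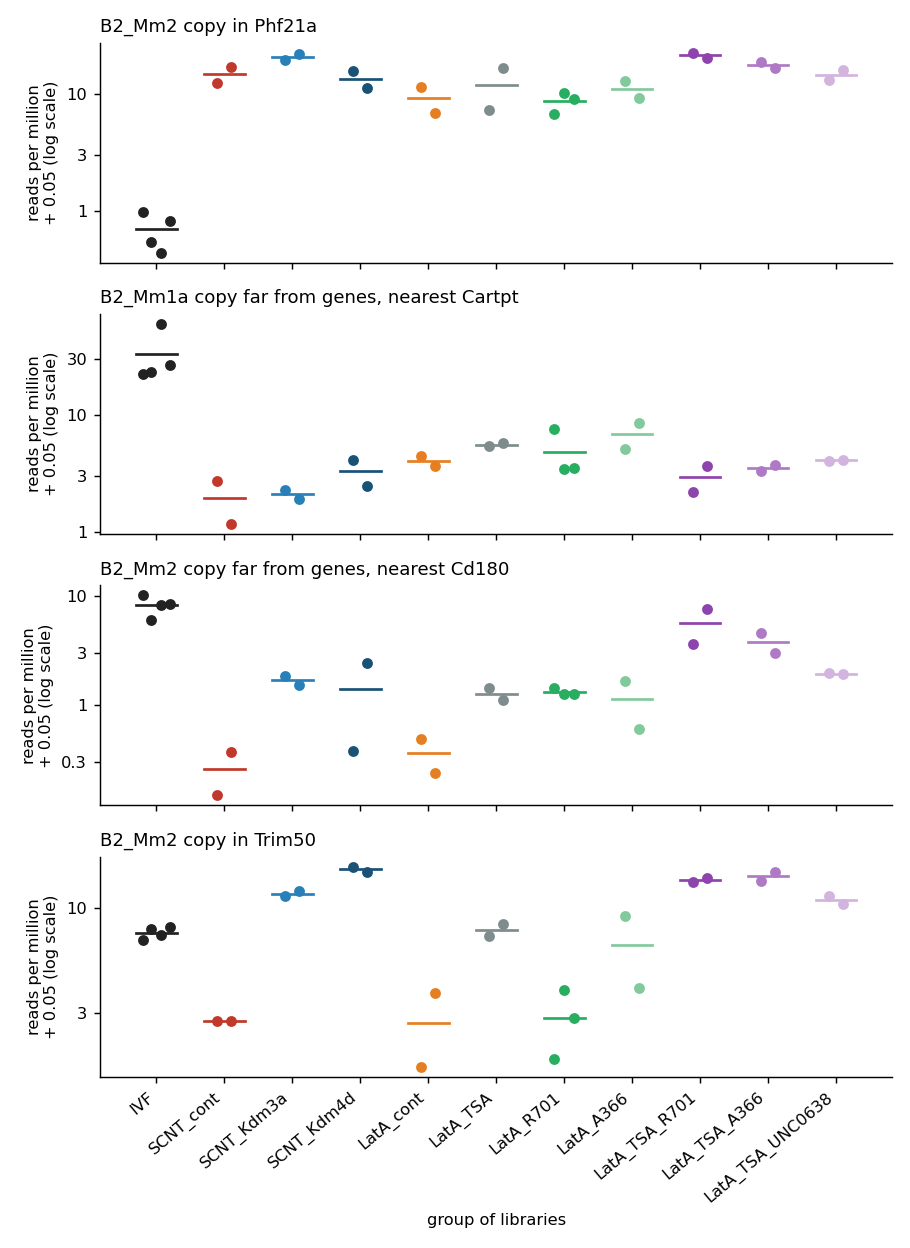
Reads per 1000000 gene reads plus 0.05 (log axis) in each of the 25 libraries (points) by group, for 4 single B2 copies: B2_Mm2 in Phf21a, B2_Mm1a nearest Cartpt, B2_Mm2 nearest Cd180 and B2_Mm2 in Trim50. The Phf21a copy is above IVF in every SCNT group, the Cartpt copy is below IVF in every SCNT group, and the Cd180 and Trim50 copies are higher in co-treated embryos than in LatA_cont.

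Inside genes, the copies with most reads were of young subfamilies. In an intron of Has2os, an antisense RNA gene of the hyaluronan synthase Has2, the B2_Mm1a copy at chr15:56726399-56726574 collected 65243 reads over all libraries. It had 42.6, 49.0, 95.2 and 61.2 RPM in IVF and 294, 332, 274 and 315 in untreated SCNT (log2 2.29 ± 0.25, adjusted p = 3.99e-06). The 2 next inside genes were the B2_Mm1a copy at chr17:65944944-65945134 in Twsg1, which encodes a secreted binder of bone morphogenetic proteins (57518 reads, log2 1.47, adjusted p = 0.0111), and the B2_Mm1t copy at chr11:97215958-97216147 in the aminopeptidase gene Npepps (38108 reads, log2 1.15, adjusted p = 0.00465). The hosts differed in direction, since exonic reads of Twsg1 rose by 2.18 and those of Npepps fell by 0.55 (adjusted p = 4.25e-06 and 0.00798). Far from genes the 3 most read copies were the B2_Mm1t copy at chr9:99170607-99170748 nearest Pik3cb (18466 reads), the copy nearest Gm4204 described above (16225 reads) and the B2_Mm1a copy at chr10:5941694-5941881 nearest Rgs17 (14120 reads). The Pik3cb and Rgs17 copies were higher by 1.35 and 1.5 (adjusted p = 0.0352 and 0.000487).

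The second comparison asked whether injecting a demethylase moved B2 RNA in SCNT embryos. Both injected groups share the SCNT_cont libraries. Inside genes B2 reads per 1000 scaled gene reads were 17.2 and 18 in SCNT_Kdm4d against 26.7 and 27.2 in SCNT_cont, and far from genes 2.80 and 2.91 against 4.43 and 4.45. B2 fell by 0.61 on the log2 scale inside genes (adjusted p = 0.00786, 29.3% of family sums called lower) and by 0.64 far from genes (adjusted p = 0.0107), while scaled to B1 reads the differences were -0.19 and -0.08 and did not pass. With SCNT_Kdm4d replicate 1 or 2 left out, neither place passed (-0.58 and -0.64 inside genes, -0.61 and -0.67 far from genes). In SCNT_Kdm3a the levels were 21.9 and 19.5 inside genes and 3.44 and 3.04 far from genes. These also lay below both control libraries but did not pass the edgeR test (log2 -0.38 and -0.46, adjusted p = 0.113 and 0.0981, 9.33% of family sums called). Whether Kdm3a passed depended on the setting. DESeq2 called both places (-0.44 and -0.51, adjusted p = 0.0162 and 0.00951), as did edgeR under each of RLE factors, no TMM factor and the 1% of copies with most reads left out, while scaled to B1 reads the differences were -0.11 and -0.22 and did not pass. Summed late two-cell markers were at 1520 to 1900 CPM in SCNT_Kdm3a and 770 to 901 CPM in SCNT_Kdm4d beside 775 to 850 CPM in SCNT_cont, with 4 of 8 called higher with Kdm3a, and 3 higher and 1 lower with Kdm4d. Summed oocyte markers were at 1350 to 1700 CPM in SCNT_Kdm4d and 1080 to 1260 CPM in SCNT_cont, with 1 of the 7 tested called higher. The part of either list in the result was not tested. The inside to far ratio of the injected libraries, 6.38 and 6.41 with Kdm3a and 6.16 and 6.2 with Kdm4d, overlapped that of untreated SCNT (exact permutation p = 1.0 for 4 injected against 4 untreated). This overlap came from the LatA_cont libraries of the other series. All 4 injected libraries lay above both libraries of their own control, SCNT_cont, and that difference was not tested.

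Of all sums, 10.1% were called lower with Kdm4d, among them 71 of 585 inside genes and 56 of 508 far from genes. Of the 10 B2 subfamily sums (inside and far), 7 were called lower and none higher. Inside genes these were B2_Mm1a (-0.79, adjusted p = 0.0199), B2_Mm1t (-0.77, adjusted p = 0.0157) and B2_Mm2 (-0.51, adjusted p = 0.0344), while B3A and B3 gave -0.41 and -0.36 (adjusted p = 0.0508 and 0.0639). Far from genes they were B2_Mm1t, B2_Mm2, B3A and B3 (-0.73, -0.74, -0.83 and -0.44). B2_Mm1a inside genes went from 8.34 and 8.85 reads per 1000 scaled gene reads to 4.78 and 5.2. Scaled to B1 reads no sum passed, and B3 in both places and B3A inside genes lay just above 0. With Kdm3a, 1 sum was called lower, beside 0.874% of all sums, and over the alternatives 0 (scaled to B1 reads) to 8 (without the TMM factor) were called. B2_Mm1t far from genes went from 1.13 and 1.25 to 0.709 and 0.663 (log2 -0.80, adjusted p = 0.0127, and -0.56 without a call when scaled to B1 reads). In the Kdm4d libraries B2_Mm1t far from genes lay at 0.708 and 0.727. Leaving out any 1 of the 4 Kdm4d or SCNT_cont libraries left 0 to 2 of the 7 calls, and the Kdm3a call was lost without SCNT_cont replicate 2 or either SCNT_Kdm3a library. Compared with each other, the 2 injected groups differed by -0.23 inside genes (Kdm4d minus Kdm3a, 95% interval -0.55 to 0.09) and by -0.18 far from genes (-0.54 to 0.17) without a call, and scaled to B1 reads by -0.09 and 0.14. Of the 10 sums, B3A far from genes was called lower with Kdm4d than with Kdm3a (-0.62, adjusted p = 0.0439). So were 5.5% of all sums, among them 55 of the 508 far from genes.

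In the injected embryos few copies were called by edgeR, and DESeq2 called many more (626 with Kdm3a and 460 with Kdm4d). By edgeR, with Kdm3a 20 B2 copies were higher and 60 lower (0.533% of those tested, beside 0.866% of all TE copies tested), and the direction was unlike that of TE copies as a whole, of which 322 were higher and 79 lower. With Kdm4d 2 were higher and 21 lower (0.153% beside 0.257% of all TE copies, where 85 were higher and 34 lower). Both edgeR counts rest on single libraries, falling to 6 to 35 copies with Kdm3a when any 1 library was left out and to 1 with Kdm4d without SCNT_cont replicate 2 or SCNT_Kdm4d replicate 2, and to 5 without SCNT_Kdm4d replicate 1. They also needed the spread estimated over all 25 libraries, as 0 copies passed in either comparison in edgeR with the compared libraries alone. The B2_Mm2 copy at chr5:135357689-135357828 in Trim50, which encodes a ubiquitin ligase, was the clearest of the 2 higher copies, at 2.71 and 2.71 RPM in SCNT_cont, 16.0 and 15 with Kdm4d and 11.4 and 12.1 with Kdm3a. It rose by 2.51 (adjusted p = 0.0167) and 2.11 (adjusted p = 0.0232), past the IVF libraries, which lay between 6.87 and 7.96. Of the lower copies, the B2_Mm1a copy at chr2:59740847-59741037 in the scaffold protein gene Tanc1 went from 10.6 and 21.4 to 2.34 and 2.52 RPM with Kdm4d (log2 -2.72, adjusted p = 0.0182). The B2_Mm2 copy at chr9:96510790-96510989 in Gm28729 went from 24.0 and 14.4 to 0.242 and 0.63 (log2 -5.41, adjusted p = 0.0324), and far from genes the B2_Mm1t copy at chr4:146425290-146425483 nearest Zfp992 went from 7.55 and 5.82 to 1.29 and 0.77 (log2 -2.69, adjusted p = 0.0417). In LatA_cont, the other untreated control, the Zfp992 copy lay between 0.978 and 1.4 RPM, about as low as with Kdm4d. A B2_Mm1t copy at chr6:72804922-72805112 nearest Tcf7l1 had 405 and 132 reads in SCNT_cont and 37 or fewer in every other library (adjusted p = 0.0446). The Dnajb14 copy described above rose with Kdm3a, to 6.03 and 2.31 RPM (log2 3.93, adjusted p = 0.00743), still below IVF.

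The third comparison took TSA and the G9a inhibitors, all against the same 2 LatA_cont libraries. TSA alone left B2 at 25.4 and 22.0 reads per 1000 scaled gene reads inside genes and 3.64 and 3.44 far from genes, beside 21.8 and 29.8 and 3.44 and 4.43 in LatA_cont. The differences were -0.12 inside (95% interval -0.44 to 0.20, adjusted p = 0.733) and -0.15 far (adjusted p = 0.731), and the interval leaves room for differences in either direction. Beside these values, summed cumulus cell markers were at 55.8 to 71.3 CPM with TSA and 35.1 to 42.3 CPM in LatA_cont, with 1 of the 7 tested called higher. The sum did not stand for a rise of the whole list, since the median log2 difference of the tested markers was -0.33, beside -0.02 over all genes. None of the 10 subfamily sums was called by edgeR or by DESeq2 (0.625% of all sums by edgeR), nor had any an unadjusted p under 0.05 in edgeR, and 1 copy was higher and 1 lower, beside 0.0627% of all TE copies, and the count was 7 without LatA_cont replicate 2 and 1 without LatA_TSA replicate 1, while 1349 B2 copies had an unadjusted p under 0.05.

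A366 alone gave 26.9 and 25.6 inside genes and 4.61 and 4.47 far from genes, with differences from LatA_cont of 0.03 (95% interval -0.29 to 0.35, adjusted p = 0.964) and 0.21 (adjusted p = 0.631). None of the 10 subfamily sums was called by edgeR (0.937% of all sums) and 0 had an unadjusted p under 0.05.

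With RK-701 alone, B2 was lower relative to gene reads in all 3 places, though not relative to B1 reads inside genes or far from them. The 3 libraries had 13.6, 14.7 and 14.8 reads per 1000 scaled gene reads inside genes, 5.35, 5.79 and 6.05 under 10 kb and 2.62, 2.67 and 2.69 far from genes. All 3 lay below both LatA_cont libraries in each place. B2 fell by 0.84 on the log2 scale inside genes (SE 0.14, adjusted p = 9.33e-05, 30.7% of family sums called lower), by 0.74 under 10 kb (adjusted p = 0.0011) and by 0.57 far from genes (adjusted p = 0.00729), but scaled to B1 reads the inside and far differences were 0.06 and 0.04, since B1 fell as much (-0.93 inside genes). Far from genes the difference was -0.38 and no longer passed without LatA_cont replicate 2. Beside these values, summed oocyte markers were at 1970 to 2480 CPM in LatA_R701 and 1050 to 1260 CPM in LatA_cont, with 1 of the 7 tested called higher. All 7 had an unadjusted p under 0.05 by edgeR, and their median log2 difference was 0.8, beside -0.01 over all genes. Summed late two-cell markers were at 646 to 879 CPM in LatA_R701 and 425 to 605 CPM in LatA_cont, with 2 of 8 called higher, and the part of either list in the result was not tested. Against IVF, LatA_R701 was at -0.24 inside genes (adjusted p = 0.141) and called lower far from genes (-0.54, adjusted p = 0.00517).

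Of all sums, 9.81% were called lower with RK-701, among them 107 of 585 inside genes and 19 of 508 far from genes. Of the B2 subfamily sums, all 5 inside genes and 3 of 5 far from genes were called lower. The young subfamilies moved most. B2_Mm1a inside genes was at 3.61, 3.79 and 4.02 reads per 1000 scaled gene reads against 6.17 and 9.61 (log2 -1.05, adjusted p = 0.00109), B2_Mm1t differed by -0.90 and B2_Mm2 by -0.84, while B3 and B3A differed by -0.60 and -0.57 (adjusted p = 0.00184 and 0.00454). Far from genes B2_Mm1a, B2_Mm1t and B2_Mm2 differed by -0.76, -0.67 and -0.54 (adjusted p = 0.0129, 0.0136 and 0.0434), and B3 and B3A, at -0.09 and -0.18, did not pass. Scaled to B1 reads the young subfamilies lay between -0.14 and 0.07 without a call, and B3 and B3A were called higher instead, at 0.47 and 0.42 far from genes and 0.28 and 0.32 inside. Without LatA_cont replicate 2, no sum was called. The median log2 difference was -0.67 over B2 copies, -0.74 over B1 copies and -0.37 over all TE copies. Of the B2 copies, 1 was higher and 73 lower (0.493% of those tested, beside 0.385% of all TE copies). The count was 260 without LatA_cont replicate 1, 9 without LatA_cont replicate 2, and 6, 8 and 0 without LatA_R701 replicate 1, 2 or 3, and with the compared libraries alone neither a copy nor a sum passed. None of the 47 lower copies in a tested gene sat in a gene called lower and 1 sat in a gene called higher, beside 3.35% of all genes called in either direction. The Has2os copy was among the lower ones, at 88.3, 76.6 and 106 RPM against 274 and 315 (log2 -1.71, adjusted p = 0.0177), as were the Npepps copy (-1.52, adjusted p = 0.0458) and the far copy nearest Gm4204, at 22.3, 19.6 and 18.1 against 66.1 and 65.5 (-1.72, adjusted p = 0.0249).

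RK-701 and A366 were given alone at the same dose and time and could be compared directly, as could the 3 inhibitors given with TSA. These made 4 pairs. Inside genes the difference of RK-701 from A366 was -0.87 ± 0.14 on the log2 scale (95% interval -1.16 to -0.58, edgeR quasi-likelihood p adjusted over the 4 pairs = 1.57e-05), and far from genes -0.77 ± 0.15 (-1.09 to -0.45, p adjusted over the 4 pairs = 0.000255), while scaled to B1 reads these were -0.05 and 0.12 without a call. This comparison does not use LatA_cont. Of the 10 subfamily sums, 7 were called lower (17.4% of all sums), from -1.18 in B2_Mm1a (3.61, 3.79 and 4.02 against 8.62 and 8.62 reads per 1000 scaled gene reads) to -0.38 in B3 inside genes. B3 and B3A far from genes, at -0.11 and -0.14, did not pass, and scaled to B1 reads both were called higher, by 0.78 and 0.75. Of the copies, 30 were higher and 402 lower (2.88%, beside 2.92% of all TE copies). The Has2os copy, at 372 and 379 RPM with A366, differed by -2.06 (adjusted p = 0.00231). Summed oocyte markers were at 1100 to 1420 CPM with A366. Of the 7 tested, 2 were called higher with RK-701 than with A366 (median log2 difference 0.86). With TSA, the pairs of inhibitors differed by 0.13 (RK-701 minus A366, 95% interval -0.19 to 0.45), 0.07 (RK-701 minus UNC0638, -0.25 to 0.39) and -0.06 (A366 minus UNC0638, -0.38 to 0.26) inside genes, and none passed. These intervals leave room for differences in either direction.

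Co-treated embryos had fewer B2 reads inside genes than LatA_cont relative to gene reads, though not relative to B1 reads, and no called difference far from genes. Inside genes the libraries gave 17.3 and 17.9 (LatA_TSA_A366), 17.2 and 21.3 (LatA_TSA_R701), and 18.1 and 18.6 (LatA_TSA_UNC0638), all below both LatA_cont libraries. B2 fell by 0.49 (SE 0.12, adjusted p = 0.00316, 37.3% of family sums called lower), and scaled to B1 reads the difference turned to 0.20 and did not pass. It was -0.28 and no longer passed without LatA_cont replicate 2. Each co-treatment passed by itself (TSA and RK-701 -0.42, TSA and A366 -0.55, TSA and UNC0638 -0.49, adjusted p = 0.0376, 0.00949 and 0.0206). The interactions of TSA with RK-701 (0.54) and with A366 (-0.46) inside genes did not pass (adjusted p = 0.161 and 0.0992). None of the 3 differed from IVF inside genes by the test (0.18, 0.06 and 0.12, adjusted p = 0.329, 0.799 and 0.564). Far from genes the difference from LatA_cont was -0.18 (adjusted p = 0.269). Summed late two-cell markers were at 1730 to 1880 CPM in LatA_TSA_UNC0638, 538 to 595 CPM in LatA_TSA_R701 and 477 to 570 CPM in LatA_TSA_A366, beside 425 to 605 CPM in LatA_cont, with 2 of 8 called higher over the co-treated groups and 8 of 8 in LatA_TSA_UNC0638 alone. The B2 values of the LatA_TSA_UNC0638 libraries inside genes lay within the range of the other 4 co-treated libraries. The inside to far ratio was 5.78 and 5.13 (LatA_TSA_R701), 4.89 and 5.04 (LatA_TSA_A366) and 5.45 and 5.62 (LatA_TSA_UNC0638), below all 4 untreated SCNT libraries (exact permutation p = 0.00952, adjusted 0.18) and above all 4 IVF libraries. Against LatA_cont alone, the control of the same series, the exact permutation test gave p = 0.0714 (adjusted 0.224).

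Of all sums, 23.3% were called lower in co-treated embryos, among them 215 of 585 inside genes and 81 of 508 far from genes. All 5 B2 subfamily sums inside genes were called lower, and B3A alone far from genes. The values inside genes lay close together, at -0.52 (B2_Mm1a), -0.45 (B2_Mm1t), -0.42 (B2_Mm2), -0.56 (B3) and -0.58 (B3A), and turned to 0.09 to 0.27 without a call when scaled to B1 reads. B3 inside genes was at 3.23 to 3.63 reads per 1000 scaled gene reads against 4.62 and 5.49. B3A far from genes differed by -0.56 (adjusted p = 0.00543, and -0.28 without a call when scaled to B1 reads). Of the copies, 59 were higher and 401 lower (3.06%, beside 4.33% of all TE copies). The median log2 difference was -0.35, beside -0.48 over B1 copies and -0.31 over all TE copies. Without LatA_cont replicate 2, 175 copies and 2 of the 6 sums were called, and without replicate 1 of any co-treated group or LatA_TSA_A366 replicate 2 the copies numbered 245 to 302. The B2_Mm2 copy at chr1:16069099-16069289 in 4930444P10Rik was among the lower ones, with 263 and 54 reads in LatA_cont, 108 and 160 in SCNT_cont, 0 to 4 in the 6 co-treated libraries and 0 or 1 in IVF (adjusted p = 3.93e-05 against LatA_cont and 2.37e-06 for untreated SCNT against IVF). Its host gene moved the same way, at 5.74 in untreated SCNT against IVF (adjusted p = 3.97e-12) and -2.07 in co-treated embryos against LatA_cont (adjusted p = 2.86e-05). TSA alone left the copy at 0 and 10 reads and RK-701 alone at 162, 73 and 85. The far B2_Mm1t copy at chr10:52219082-52219245 nearest Dcbld1 went from 6.74 and 8.29 RPM to 0.203 to 2.57 (log2 -3.15, adjusted p = 0.00109).

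Among the higher copies, the Trim50 copy rose from 1.58 and 3.72 RPM to between 10.4 and 15 (log2 2.30, adjusted p = 0.00387), the same copy that rose with both demethylases. The far copy nearest Cd180 rose from 0.435 and 0.186 to 4.5 and 2.91 (A366), 3.55 and 7.53 (RK-701) and 1.88 and 1.84 (UNC0638), with a log2 difference of 3.33 (adjusted p = 0.0112), and the far B2_Mm2 copy at chr17:88090656-88090846 nearest Fbxo11 by 3.24 (adjusted p = 0.0121). The B2_Mm2 copy at chr17:24544155-24544326 in the antisense gene AC132367.1 rose by 1.5 (adjusted p = 0.00921) together with its host (1.29, adjusted p = 0.00305), and was lower with RK-701 alone than with A366 alone (-2.28, adjusted p = 0.00151).

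Genes of RNA polymerase III transcription, and of SINE binding and H3K9 methylation, were taken from fixed lists. The polymerase list covers that machinery in general and is not limited to factors that act on B2. Of 27 genes of RNA polymerase III transcription, 2 were higher and 3 lower in untreated SCNT against IVF (adjusted p under 0.05 and over 2-fold, beside 18.8% of all genes), with a median log2 difference of -0.01 over the list and 0 over all genes. Maf1, the repressor of the polymerase, was at 3.12 to 5.79 CPM in IVF, 14.9 to 19.9 in SCNT_cont and 14 to 17.8 in LatA_cont (log2 1.90, adjusted p = 5.85e-06), and Tbp, the TATA-binding subunit of its initiation factor, at 237 to 300 CPM in IVF and 65.8 to 114 in untreated SCNT (log2 -1.64, adjusted p = 9.4e-09). The 2 groups did not overlap for either gene. Brf1, another subunit of that factor, was higher (1.13), and Polr1c and Polr1d, subunits shared by RNA polymerases I and III, were lower (-1.25 and -1.02). With Kdm4d Tbp, Polr1d and Gtf3c3 were higher (1.20, 1.04 and 1.26) and Maf1 lower (-1.65, adjusted p = 0.0111), beside 3.14% of all genes called. In co-treated embryos Tbp, Polr1d, Snapc1 and Brf2 were higher (1.31, 1.01, 1.08 and 1.1) and Maf1 lower (-1.39, adjusted p = 0.00118), beside 10.2% of all genes, and the list had a median of 0.54 against -0.16 over all genes. With Kdm3a Tbp alone was called (1.18, adjusted p = 0.0015, beside 4.17% of all genes). No gene of the list was called with TSA, RK-701 or A366 alone by edgeR (0.318%, 3.35% and 0.12% of all genes), while 6, 10 and 5 of the 27 had an unadjusted p under 0.05. Of 17 genes of SINE binding and H3K9 methylation, 16 were tested, and Ehmt2, which encodes G9a, was called in untreated SCNT against IVF (9.32 to 11.4 CPM in IVF and 29.4 to 33.5 in untreated SCNT, log2 1.61, adjusted p = 1.37e-07) and none by edgeR in the other 5 main comparisons, where 3 to 10 of the 16 had an unadjusted p under 0.05.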

How the data were processed

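The deposited table held raw read counts per gene and per TE copy for 25 libraries. To make these counts, the authors trimmed reads with Trimmomatic, aligned 150-bp pairs to mm10 with STAR keeping pairs with 1 place and no mismatch, and counted fragments with featureCounts 1.6.2 without strand against genes joined with RepeatMasker copies. Strain differences from mm10 can therefore lose reads.

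Distances to genes were computed from the exon spans in the table. Counts were fitted with edgeR 4.0.16 (limma 3.58.1, R 4.3.3), quasi-likelihood test, all 25 libraries and 11 groups in 1 fit, Benjamini-Hochberg adjustment over each whole table. Library size was gene reads times the TMM factor (0.883 to 1.16). Leaving this factor out shifts every log2 difference by 0.23 (untreated SCNT against IVF), -0.29 (Kdm3a), -0.27 (Kdm4d), -0.09 (TSA), -0.03 (RK-701) and -0.28 (co-treated). Rows needed a mean of 10 reads (sums), 5 (copies) or 1 (genes). Sums were called at an adjusted p under 0.05, copies and genes also at over 2-fold. DESeq2 1.42.0 was an alternative, and the fits were tested on simulated data, where 70% of 200 subfamily sums changed 2-fold in IVF were recovered (35.5% for LatA_R701), and 54% of copies changed 8-fold in IVF and none of those changed 4-fold in LatA_R701. The changed rows were drawn from those with a mean of at least 10 reads, and all rows of a simulation shared the same spread. These shares do not cover copies tested with a mean of 5 to 10 reads. Single values used exact two-sided permutation tests over samples.

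The members, gene lists and named copies were chosen with earlier results of these data known. Named copies were, for untreated SCNT against IVF, Kdm4d and co-treatment, up to 2 called copies per direction inside genes and far from them with the smallest adjusted p and at least 10 reads in every library of the higher group, plus the 3 copies with most reads in each place, and named genes were their hosts and called list members (up to 4 per list and comparison, and Brf1, Polr1c and Polr1d with them). No replicate pair agreed within counting noise. Sex chromosomes were left out. Some results on single genes are not reported here.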

Additional observations from a re-analysis of the deposited data

Results flagged for a closer look

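The B3 total inside genes was flagged in the IVF group because 1 library stood away from the others. IVF replicate 1 had 2.69 reads per 1000 scaled gene reads, against 2.88, 2.86 and 2.87 in the other 3 libraries, and its gap to the nearest of them was 0.881 of the range of the group. The whole range is small beside the untreated SCNT libraries, the lowest of which had 4.62. Chance alone flags about 1 in 20 groups in this way.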

How the results depend on the processing

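Values are given as log2 differences of the B2 total, or as the number of B2 sums (of 10) or copies called. Scaled to SINE B1 reads, the differences inside genes were -0.27 (untreated SCNT against IVF), -0.19 (Kdm4d), 0.06 (RK-701), 0.20 (co-treated) and -0.05 (RK-701 against A366), and far from genes -0.48, -0.08 (Kdm4d), 0.04 (RK-701) and 0.12 (RK-701 against A366), with 0 (Kdm3a), 0 (Kdm4d), 4 (RK-701) and 0 (co-treated) sums called. The 4 sums with RK-701 were B3 and B3A in both places, called higher and not lower. Scaled to other TE reads, inside genes untreated SCNT gave 0.19 and co-treated -0.07, Kdm3a far from genes gave -0.59, and 3 (Kdm3a), 1 (Kdm4d), 5 (RK-701) and 1 (co-treated) sums were called. Without the TMM factor, far from genes untreated SCNT gave 0.35, Kdm3a -0.75 and co-treated -0.47, Kdm3a inside genes gave -0.67, 8 (Kdm3a) and 10 (co-treated) sums and 44 (Kdm4d) and 970 (co-treated) copies were called. DESeq2 and RLE factors each gave -0.51 far from genes and -0.44 inside genes for Kdm3a, with 4 and 2 sums, and DESeq2 called 626 (Kdm3a), 460 (Kdm4d), 110 (TSA), 644 (RK-701) and 1009 (co-treated) copies. Without the 1% of copies with most reads, Kdm3a passed at -0.48 far and -0.50 inside, with 4 sums. With the compared libraries alone, 3 (Kdm3a) and 0 (RK-701) sums and 0 (Kdm3a), 0 (Kdm4d), 0 (TSA), 0 (RK-701) and 71 (co-treated) copies passed in edgeR, a fit with fewer libraries to estimate the spread. At 50 kb or more from genes RK-701 gave -0.38 and 5 sums, and Kdm3a 0 sums, as with distances to protein-coding genes, while without a filter Kdm3a had 3. At a mean of at least 1 read, 43 (Kdm4d) and 7 (TSA) copies were called, and at 10 reads 66 (Kdm4d) and 127 (RK-701). Beside the scalings, the cause of these shifts was not tested. The comparison of RK-701 with A366 was put through the alternatives after the data had been seen.

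Replicate numbers do not pair the samples: 9 of 110 same-numbered pairs of groups correlated above 0.1 (r from -0.40 to 0.21). As a replicate block the replicate numbers left 923 (untreated SCNT), 30 (Kdm3a), 5 (Kdm4d), 0 (TSA), 17 (RK-701) and 254 (co-treated) copies, and changed the call of no B2 total and the number of sums by at most 1.

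Leaving out 1 library at a time, where an arm of 2 then kept 1 library assumed to vary like the other groups, the B2 total far from genes ranged from 0.01 to 0.25 (untreated SCNT), -0.55 to -0.37 (Kdm3a), -0.68 to -0.61 (Kdm4d), -0.32 to -0.01 (TSA), -0.69 to -0.38 (RK-701), -0.33 to -0.02 (co-treated) and -0.75 to -0.73 (RK-701 against A366). Inside genes it ranged from 0.52 to 0.74, -0.47 to -0.30, -0.67 to -0.58, -0.33 to 0.07, -1.01 to -0.61, -0.68 to -0.28 and -0.86 to -0.80 in the same order. Sums numbered 6 (untreated SCNT), 0 to 1 (Kdm3a), 0 to 2 (Kdm4d), 0 (TSA), 0 to 8 (RK-701) and 2 to 6 (co-treated), and copies 1548 to 2095, 6 to 35, 1 to 17, 1 to 7, 0 to 260 and 175 to 406. Of 316 tests of the named copies under the alternatives, 37 lost the call and none changed sign. Far from genes a sum rests on few reads per copy, and with 2 libraries a group only large changes of single copies can pass.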
